A study of Capra hircus with 2 samples.

Results

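The genes described here are 6 genes of muscle protein breakdown: the calpains CAPN1 (NM_174259), CAPN2 (NM_001103086) and CAPN3 (NM_174260), the calpain inhibitor calpastatin (CAST, NM_174003), and the ubiquitin ligases FBXO32 (NM_001046155) and TRIM63 (NM_001046295). They were chosen by name, as the accessions of their cattle RefSeq transcripts, and not by a rule on their values. Earlier results of these data were known when the list was chosen. All 6 of 6 accessions had reads in both libraries, out of 11663 accessions listed in either. Their levels were measured by RNA sequencing of longissimus thoracis, a back muscle, of Chinese Xuhuai goats. The fetal library was made at gestation day 90, where gestation lasts 150 days, and the other library at 6 months of age. No treatment or genotype is named for either. Each stage was 1 library, how many animals went into it is not stated in the labels, and no difference below has a replicate check. The sampling text of the 6-month library is that of the fetal one, so how the older muscle was collected is not stated.

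Calpains are calcium-activated proteases of the cytosol. CAPN1 and CAPN2 are the large, catalytic subunits of the ubiquitous mu-calpain and m-calpain, which cut cytoskeletal and myofibrillar proteins at a limited number of sites, and calpastatin is their specific inhibitor protein. In meat animals this system is best known for the softening of muscle after slaughter. CAPN3, also called p94, is found mainly in skeletal muscle, binds the giant sarcomere protein titin, and is mutated in a form of limb-girdle muscular dystrophy. FBXO32 (atrogin-1 or MAFbx) and TRIM63 (MuRF1) are muscle ubiquitin ligases that mark proteins for the proteasome, and both are standard markers of muscle atrophy in adult animals.

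The fetal library held 12811117 unique reads over 11393 accessions and the 6-month library 9144138 over 10850. Levels are given as RPKM, the reads of a transcript normalised to its length and to the library's total, with a 95% exact Poisson interval that covers counting error alone. The stage difference is the fetal log2(RPKM + 1) minus the 6-month log2(RPKM + 1), and a gene was called higher in a library at a difference of at least 1 log2 unit. Both ubiquitin ligases were called higher at 6 months, TRIM63 by about 41.0-fold and FBXO32 by about 10.9-fold in read share. CAPN1 was called higher in the fetal library, at 3.07-fold. CAPN2 lay just under the threshold on the fetal side, CAPN3 just under it on the 6-month side, and CAST was nearly level.

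The calls thus numbered 1 gene of 6 for the fetal library and 2 of 6 for 6 months. Of the 9705 accessions that reached an RPKM of 1 in one library or both, the same rule called 35.1% for the fetal library and 9.46% for 6 months. The median difference was -0.49 log2 units over the 6 genes, with a range of -5.22 to 1.58, and 0.61 over all accessions compared. RPKM is relative to each library's total, and centring on the median ratio moved every difference by 0.58 log2 units toward 6 months before the pseudocount. On that scale 22.3% of accessions were called fetal and 17.2% at 6 months, and the 6 genes gave 1 and 3, because CAPN3 then passed the threshold. In bulk muscle, fewer cells that express a gene and less of its RNA per cell cannot be told apart.

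**Figure D1:**
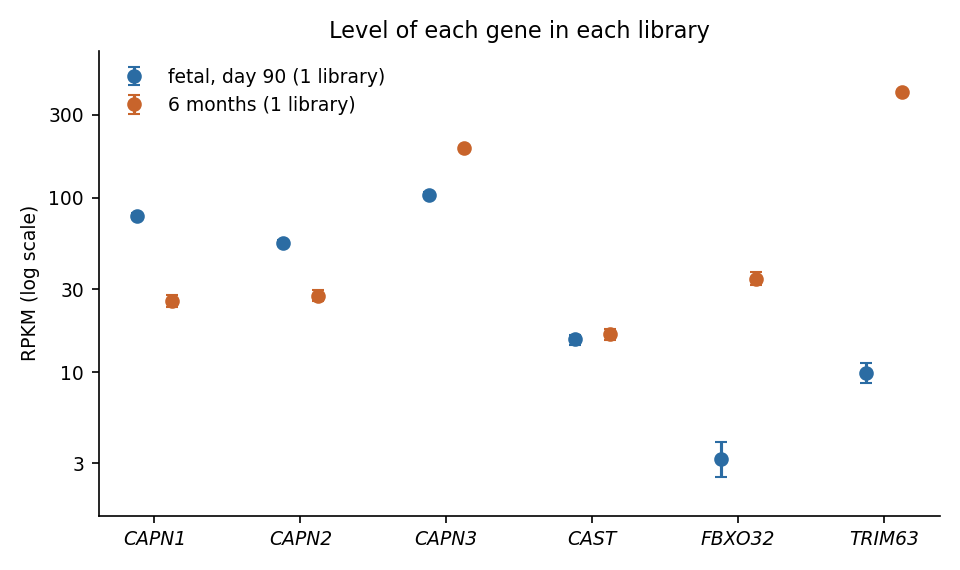
RPKM (log axis) of the 6 genes in the fetal day 90 library and the 6-month library, 1 library each. Bars are 95% exact Poisson intervals of the reads, hidden by the point where they are narrow. TRIM63 goes from 9.95 to 407 and FBXO32 from 3.17 to 34.4, CAPN1 and CAPN2 are lower at 6 months, and the CAST points lie close together.

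TRIM63 showed the largest difference of the 6 genes. It had 234 fetal reads and 6840 reads at 6 months, over a transcript of 1836 bases. Its RPKM was 9.95 (8.71 to 11.3) in the fetal library and 407 (398 to 417) at 6 months. The 6-month read share was 41.0 times the fetal one, with an exact conditional binomial 95% interval of 35.9 to 46.9. By rank of RPKM the transcript moved from 5149 of 11393 accessions in the fetal library to 213 of 10850 at 6 months, that is into the top 1.96%. Its difference of -5.22 log2 units ranked 15 of the 9705 accessions compared, counted from the largest in favour of 6 months. Among the 477 other accessions whose mean RPKM lay within 2-fold of its own, 1 had a difference within 0.1 log2 units of it.

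FBXO32, the F-box subunit of an SCF-type ligase complex, was the least abundant of the 6 genes in the fetal library. It had 74 reads there and 574 at 6 months, over 1824 bases. The RPKM was 3.17 (2.49 to 3.98) in fetal muscle and 34.4 (31.7 to 37.3) at 6 months. The ratio of read shares was 10.9 in favour of 6 months (8.52 to 14.04), an interval that is wider relative to its ratio than that of TRIM63, with 74 fetal reads behind it against 234. The difference of -3.09 log2 units ranked 116 of 9705 toward 6 months. With the pseudocount of 1 the change of so low a transcript is understated, and without it the log2 ratio was -3.44.

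Both ligases were higher at 6 months, but not to the same extent. FBXO32 stood at 0.318 of the TRIM63 RPKM in the fetal library (95% interval 0.245 to 0.413) and at 0.0845 at 6 months (0.0776 to 0.0920). This ratio within a library does not depend on how libraries are scaled to each other. It was 3.77 times as high in the fetal library (2.86 to 4.96), beyond counting error. The summed RPKM of both ligases was 13.1 in fetal muscle and 442 at 6 months, and TRIM63 held most of it at both stages.

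CAPN1, the catalytic subunit of mu-calpain, had 2969 fetal reads and 690 reads at 6 months over 2948 bases. Its RPKM was 78.6 (75.8 to 81.5) in fetal muscle and 25.6 (23.7 to 27.6) at 6 months. The fetal read share was 3.07 times the 6-month one (2.83 to 3.34), and the difference was 1.58 log2 units. A difference toward the fetal library was common among all transcripts: 17.7% of the accessions compared had a larger one. After centring on the median ratio the CAPN1 difference was 1.02, barely over the threshold.

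CAPN2, the catalytic subunit of m-calpain, had 2268 fetal reads and 808 reads at 6 months over 3216 bases. The RPKM was 55.05 (52.8 to 57.4) in the fetal library and 27.5 (25.6 to 29.4) at 6 months. The fetal share was 2.003 times the 6-month share (1.85 to 2.17), so counting error alone spans the 2-fold mark. With the pseudocount the difference was 0.98 log2 units and the gene was not called, and 35.9% of accessions lay further toward the fetal library. After centring the difference was 0.42.

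The ratio of the ubiquitous calpains to each other differed between the libraries. CAPN1 stood at 1.43 times the CAPN2 RPKM in the fetal library (1.35 to 1.51). At 6 months it stood at 0.932 times (0.842 to 1.03), an interval that includes equality, so the order of both genes at 6 months was not resolved at this depth. Per covered length of transcript instead of full length, the 6-month ratio was 1.04, with CAPN1 on top. The change of the ratio between libraries was 1.53-fold (1.37 to 1.72).

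CAPN3, the muscle calpain, was the most abundant of the 6 genes in the fetal library and the second, after TRIM63, at 6 months. It had 3954 fetal reads and 5249 reads at 6 months over 2955 bases. Its RPKM was 104.4 (101.2 to 107.8) in fetal muscle and 194 (189 to 199.6) at 6 months. The 6-month share was 1.86 times the fetal one (1.78 to 1.94), beyond counting error but under 2-fold, and the difference was -0.89 log2 units. On this scale 10.9% of all accessions compared lay further toward 6 months. CAPN3 passed the threshold at -1.46 after centring on the median ratio and at -1.12 with the 50 most abundant accessions left out of both totals.

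Within the calpains, the balance between the muscle form and the ubiquitous forms was thus not the same in both libraries. CAPN3 stood at 0.781 of the summed RPKM of CAPN1 and CAPN2 in the fetal library (0.750 to 0.814). At 6 months it stood at 3.66 times that sum (3.46 to 3.88), a change of 4.68-fold (4.36 to 5.03) in favour of CAPN3. On the deposited scale the summed level of the 3 calpains was nearly equal, at an RPKM of 238 in fetal muscle and 247 at 6 months. Unlike the ratios, this comparison depends on scaling, and centring on the median ratio moves it by 0.58 log2 units toward 6 months. CAPN3 made up 43.9% of that sum in the fetal library and 78.5% at 6 months, CAPN1 33.02% and 10.3%, and CAPN2 23.1% and 11.1%.

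**Figure D2:**
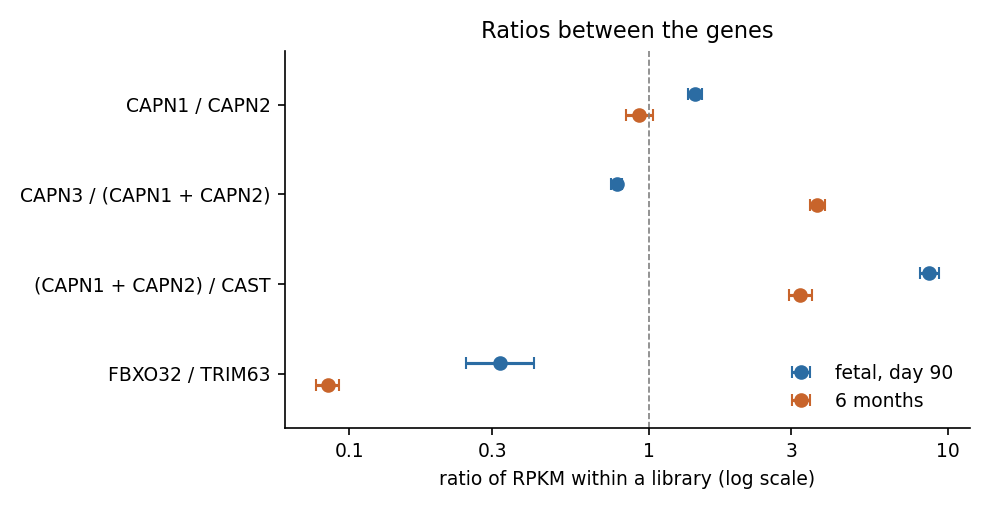
Ratios of RPKM between the genes within each library (log axis), with 95% intervals for counting error and a dashed line at equality. The ratio of CAPN3 to the ubiquitous calpains crosses the line, from 0.781 in the fetal library to 3.66 at 6 months. The other ratios are higher in the fetal library. The CAPN1 to CAPN2 point also crosses, from 1.43 to 0.932, but its 6-month interval includes equality.

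CAST, the inhibitor of CAPN1 and CAPN2, had similar levels in both libraries. It had 898 fetal reads and 687 reads at 6 months over 4551 bases. The RPKM was 15.4 (14.4 to 16.4) and 16.5 (15.3 to 17.8), respectively. The ratio of fetal to 6-month read share was 0.933 (0.844 to 1.03), so a difference was not detectable at this depth on the deposited scale. The log2 difference was -0.09, and it was on the 6-month side under the 4 other scalings as well, reaching -0.65 with the centrings. Of all accessions compared, 73.8% lay further toward the fetal library than CAST.

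The ratio of protease to inhibitor transcripts differed between the libraries, and like the other ratios between genes it does not depend on their scaling. The summed RPKM of CAPN1 and CAPN2 was 8.68 times that of CAST in the fetal library (8.08 to 9.31) and 3.21 times at 6 months (2.94 to 3.52). The change was 2.70-fold (2.41 to 3.03), beyond counting error. The size of the ratio itself depends on how CAST is measured, as its reads left a large part of the transcript uncovered. Counted per covered length, it was 6.53 in fetal muscle and 2.25 at 6 months, and the change between libraries was 2.90-fold. These are transcript ratios, and the activity of the proteases was not measured.

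**Figure D3:**
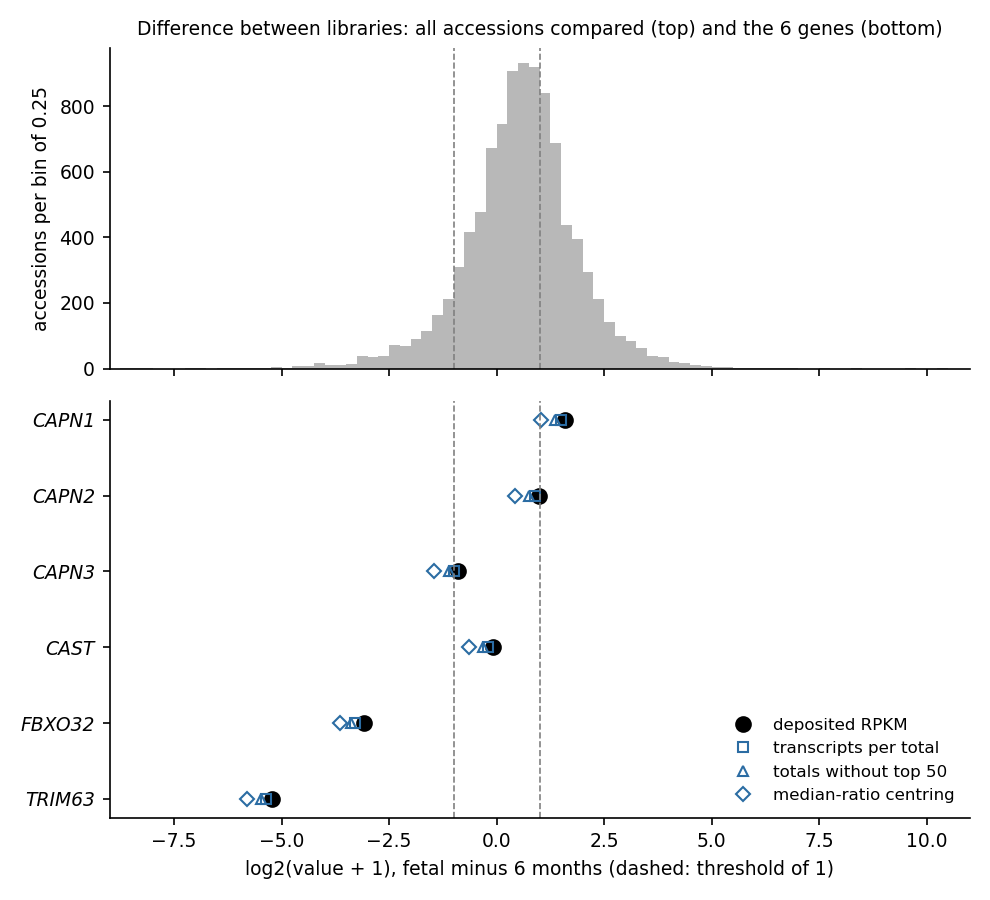
Top: number of accessions per bin of the log2 difference, fetal minus 6 months, over all 9705 accessions compared. Bottom: the same difference for each of the 6 genes on the deposited RPKM (black) and under other scalings (blue), with dashed lines at the threshold of 1. TRIM63 and FBXO32 lie in the sparse left tail under every scaling plotted, and the CAPN3 point at -0.89 moves past the threshold to -1.46 with median-ratio centring.

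The order of the genes by RPKM was CAPN3, CAPN1, CAPN2, CAST, TRIM63 and FBXO32 in the fetal library. The Poisson intervals of neighbours in this order did not overlap. At 6 months the order was TRIM63, CAPN3, FBXO32, CAPN2, CAPN1 and CAST, and only the intervals of CAPN2 and CAPN1 overlapped. Both orders and their intervals rest on full transcript length. Per covered length at 6 months, CAPN1 stood at 1.04 times CAPN2, and their sum at 2.25 times CAST instead of 3.21. The last place of CAST at 6 months is therefore less clear on that basis, for which gene intervals were not computed. TRIM63 and FBXO32 together made up 4.92% of the summed RPKM of the 6 genes in the fetal library and 62.6% at 6 months. The 3 calpains made up 89.3% and 35.05%, and CAST 5.78% and 2.34%. These shares weigh transcripts per length and rest mostly on TRIM63, whose own share went from 3.73% to 57.7%.

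The reads also differed in how much of each transcript they covered, a measure deposited beside the counts. CAPN3 was covered to 98.04% in fetal muscle and 98.1% at 6 months, and CAPN2 to 96.2% and 95.96%. TRIM63 was covered to 92.4% and 95.8%, in spite of the 29.2 times greater depth of reading at 6 months. CAPN1 coverage was 87.5% and 85.7%, and for FBXO32 it was 87.6% and 83.7%, lower in the library with more of its reads. CAST was covered to 68.4% in the fetal library, leaving 1438 bases without reads, and to 63.5% at 6 months, leaving 1661. Set beside accessions whose depth of reading differed by at most 25%, CAST was low in both libraries: 13.3% of 1187 such accessions in the fetal library and 8.26% of 860 at 6 months had lower coverage. FBXO32 in the fetal library stood at the other end, with 94.95% of 812 accessions of like depth below it. The width of 25% was chosen after the data were seen. Which bases lacked reads was not analysed here, and the part that isoforms or sequence differences between cattle and goat play in it was not tested.

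**Figure D4:**
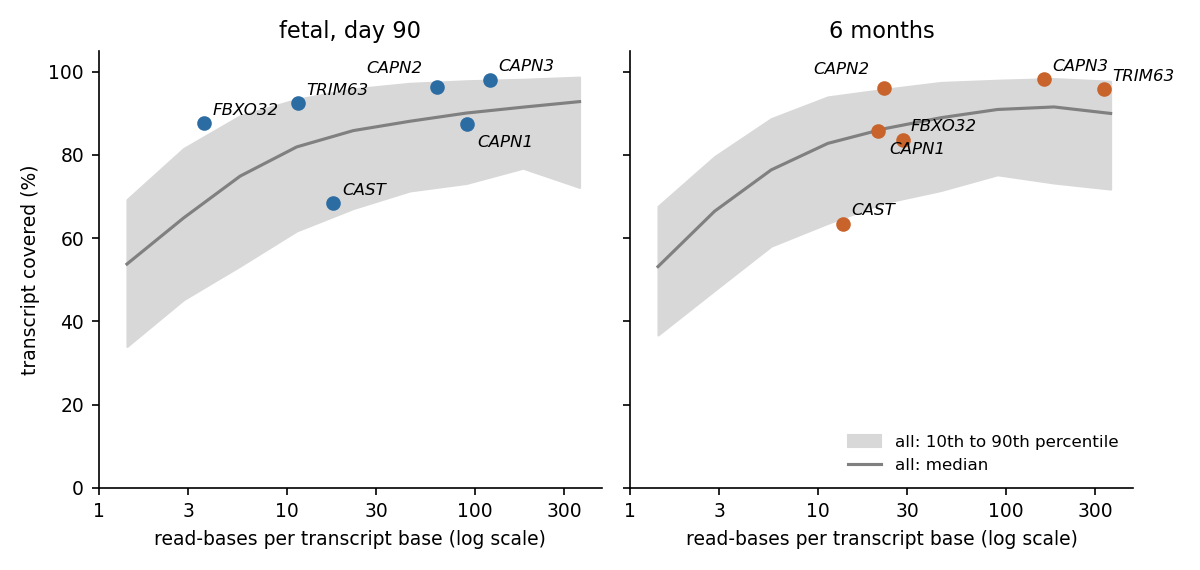
Percent of each transcript covered by reads against the read-bases per transcript base (log axis), for the fetal library (left) and the 6-month library (right). Grey bands span the 10th to 90th percentile of all accessions in doubling steps of depth and the line is their median. CAST lies well under the median in both libraries, at 68.4% and 63.5%, and CAPN2 and CAPN3 lie above it.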

How the data were processed

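Goat longissimus thoracis was sequenced as 2 libraries, 1 per stage, and grouped by the age label. Values deposited per RefSeq accession are, per the file headers, a count of unique reads, a length, the percent of that length covered, and the RPKM. No label or header names the aligner, the build, the strand setting or the transcript set, nor the handling of reads shared between paralogs (calpains, TRIM family). The deposited counts summed to the header totals, and the deposited RPKM was recovered from them within 1 part in 1000000. An accession missing from a list has 0 reads, which allows up to 2.34e-05% of fetal and 3.28e-05% of 6-month reads (3 counts).

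All 6 genes are named. Their symbols come from the list of cattle accessions by which they were chosen. That list and the tests were chosen with earlier results of these data known. Of 11663 accessions, 0 were found in the goat RefSeq table (ARS1.2), so the planned lists of other pathway genes and cell type markers could not be used, and the tissue label was not checked against markers.

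Accessions reaching an RPKM of 1 in one library or both were compared, with a pseudocount of 1 and a threshold of 1 log2 unit. With 1 library per stage there was no test and no p-value. Read-share ratios have exact conditional binomial (Clopper-Pearson) 95% intervals and ratios between genes have delta-method Poisson intervals. All intervals compare these libraries, not the stages, and hold counting error alone. They treat reads as independent, and would be too narrow where reads are PCR copies of the same molecule. Depth of reading used the 90 bases that single reads covered. The calling rule was tested on simulated counts that held counting error alone, with no variation between animals and no overall shift between libraries. Alternatives covered pseudocount, minimum, threshold, 4 scalings and the length basis. The software was SciPy 1.17.1, NumPy 2.4.6 and pandas 2.3.3 under Python 3.11.15, with matplotlib 3.10.9 for figures.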

Additional observations from a re-analysis of the deposited data

How the results depend on the processing

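No replicate could be left out, and no paired analysis was possible because each stage has 1 library. CAPN1 was called higher in the fetal library, and FBXO32 and TRIM63 at 6 months, under the alternatives tried, except that a threshold of 2 log2 units left 0 genes called for the fetal library. The alternatives that changed only the minimum RPKM or minimum reads could not alter these calls, because all 6 genes lay above every minimum tried. All 6 differences kept their sign. With a pseudocount of 5 they were 1.45 for CAPN1, -2.27 for FBXO32 and -4.79 for TRIM63. Transcripts-per-total scaling gave -0.997 for CAPN3. Centring on the median ratio gave 1.02 for CAPN1, 0.42 for CAPN2, -1.46 for CAPN3, -0.65 for CAST, -3.65 for FBXO32 and -5.80 for TRIM63. The trimmed mean gave 1.02, 0.41, -1.47, -0.65, -3.65 and -5.80 in the same order. Totals without the 50 most abundant accessions gave 1.37 for CAPN1, 0.76 for CAPN2, -1.12 for CAPN3, -0.32 for CAST and -5.48 for TRIM63. CAPN3 was called higher at 6 months under both centrings and without those 50. Centring changed the calls over all accessions from 3411 fetal and 918 at 6 months to 2162 and 1674. Per covered length, the ratio of CAPN1 to CAPN2 was 1.57 in the fetal library and 1.04 at 6 months, that of CAPN3 to both was 0.724 and 3.38, that of both to CAST was 6.53 and 2.25, and that of FBXO32 to TRIM63 was 0.0967 at 6 months. With plain reads, CAPN1 to CAPN2 was 1.31 in the fetal library, and both to CAST 5.83 and 2.18. The changes of these ratios between libraries stayed within their counting intervals. With plain reads, the changes of CAPN1 to CAPN2 and of FBXO32 to TRIM63 were the same by construction, because transcript length cancels.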
